A study of Mus musculus with 5 samples.

Results

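Pericyte-like mural cells low in Myh11 were taken from single-cell RNA sequencing of the mouse temporomandibular joint (TMJ) disc, a plate of fibrocartilage that cushions the jaw joint. A cell was chosen by its counts of unique molecular identifiers (UMIs), each of which stands for 1 captured transcript. It needed at least 3 UMIs of Rgs5 and Notch3 together, 0 UMIs of the endothelial gene Cdh5 and the myeloid gene Tyrobp, and Myh11 below 1000 CPM within the cell, with at most 12000 UMIs and at most 30% of them mitochondrial. This rule found 780 members among 51948 barcodes, of which 346 came from discs of 3 d, 136 of 3 w, 88 of 16 w and 104 of 78 w, and 106 from injured discs.

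By their labels all mice were wild-type C57BL/6, and each condition was 1 library. Normal discs were untreated and came from newborns of 3 days and from mice aged 3, 16 and 78 weeks (below 3 d, 3 w, 16 w, 78 w). Injured discs came from mice operated at 5 weeks of age, in which the anterior band was injured with a needle under anaesthesia, and they were collected 2 weeks later at 7 weeks. The study's methods give both sexes for the newborn mice and males for the older normal mice, and the labels give no sex. In members, Xist, which is transcribed from the inactive X chromosome of females, had 1821 UMIs at 3 d and 257 in the injured library, and 0 in the other libraries. The Y-linked gene Ddx3y had 102, 209, 49 and 91 UMIs in the normal libraries by age, and 0 in the injured library. Injury and sex therefore cannot be told apart here, and no normal library matches the injured mice in age.

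The libraries held 125130270 UMIs at 3 d, 125427849 at 3 w, 88998394 at 16 w, 105309834 at 78 w and 31585993 in the injured library, and values given in a row below follow that order. Members had medians of 6860, 6347, 5195, 5726 and 3014 UMIs per cell, so that the injured members were the shallowest. With 1 library per condition there was no replicate, and no test of a difference between conditions could be made. Levels are CPM: within each library the UMIs of a cell class were added up, and a gene's part of that sum was scaled to counts per 1000000 UMIs. Intervals are exact 95% intervals and cover counting error only. A gene is called when its ratio is past 2-fold, which is a rule of size, among genes with at least 100 UMIs summed over the cells compared. Fewer than 3 UMIs in the lower group were taken as 3, so that such a ratio is a lower bound, and no direction was read where both groups held 3 UMIs or fewer. Between 19 and 39 barcodes were shared by each of the 10 pairs of libraries, and 0 of them were members in both.

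Mural cells wrap around endothelial tubes. Pericytes lie within the basement membrane of capillaries and small venules and carry the receptor PDGFRB, whereas smooth muscle cells around larger vessels are rich in contractile proteins such as MYH11. NOTCH3 is the Notch receptor typical of mural cells: ligands of the Jagged and Delta families on neighbouring cells release its intracellular domain, which switches on targets such as Hes1, Heyl and Nrarp. RGS5 damps signals of G protein-coupled receptors and is a usual pericyte marker, and THY1 is a surface glycoprotein used to mark mesenchymal progenitors. In GRCm38, Rgs5 lies on chromosome 1 (169655501 to 169695813, plus strand), Notch3 on chromosome 17 (32120820 to 32166852, minus strand), Thy1 on chromosome 9 (44043384 to 44048579, plus strand) and Myh11 on chromosome 16 (14194535 to 14291372, minus strand).

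The label was then checked against pericyte genes that the rule had not used. Of 20 listed pericyte markers, 8 stood at 6 CPM or less in the stromal cells of every library and served as the check: Kcnj8 and Abcc9, which together form the vascular ATP-sensitive potassium channel, Gucy1a3 and Gucy1b3, the subunits of the nitric oxide receptor, and Higd1b, Vtn, P2ry14 and Art3. At least 2 UMIs of these 8 genes were found in 562 of 780 members (72.1%, exact interval 68.8 to 75.2), a cut set after the values were seen. The other 218 members (27.9%) fell below that cut, 185 with 0 and 33 with 1 UMI of the 8 genes, and they are given no cell type name. Stromal cells, defined by a UMI of Pdgfra and none of Rgs5, Notch3, Cdh5 and Tyrobp, met the same cut in 164 of 15876 cells (1.03%), a share kept low by the choice of genes rare in stroma and by the absence of Rgs5 and Notch3, and so no check of the label. The cut was also met by mural cells at or above the Myh11 limit, called Myh11-high below, in 268 of 295 cells (90.8%). It therefore does not tell pericyte-like cells from Myh11-high mural cells. The phrase "with pericyte markers" below refers to these genes and not to a settled cell type.

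The share of members with pericyte markers was 67.3% (62.1 to 72.3) in 3 d discs, 93.4% (87.8 to 96.9) in 3 w discs, 92.0% (84.3 to 96.7) in 16 w discs, 72.1% (62.5 to 80.5) in 78 w discs and 43.4% (33.8 to 53.4) in injured discs. The cut was thus met by nearly all members at 3 w and 16 w and by a minority of those in the injured library. The cut counts UMIs and moves with depth, and the injured members with markers had a median of 2628 UMIs against 6211, 6296, 5013 and 5005 in the normal libraries. Members without the markers were deeper, with medians of 8844, 9720, 8295, 10437 and 5145 UMIs.

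**Figure D1:**
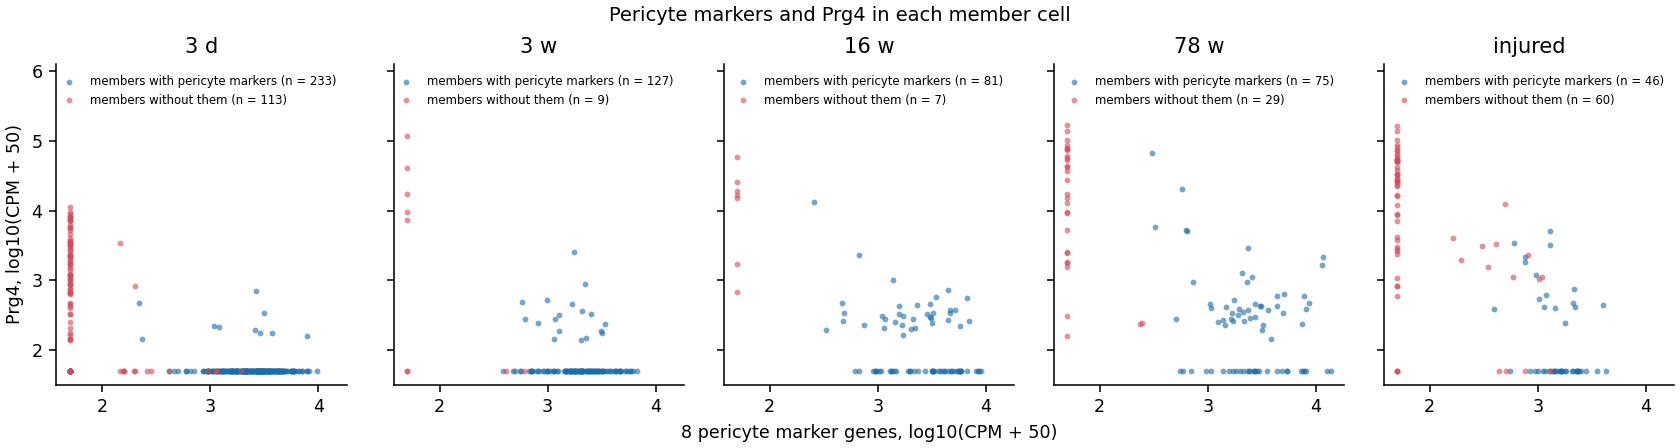
Each point is 1 member cell, with the summed level of the 8 pericyte marker genes on the x axis and of Prg4 on the y axis, both as log10 of CPM plus 50, and 1 panel per library. Blue points are the 562 members with at least 2 UMIs of the markers, and red points are the 218 members without, most of which lie at no marker UMI and, after 3 d, reach high Prg4.

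Members without the markers were high in Prg4 and in a few genes that were rare in stromal cells. Prg4, which encodes the boundary lubricant lubricin, stood in them at 1841, 29037, 19242, 39289 and 36965 CPM, and in the members with markers at 10.1, 49.0, 459, 2244 and 389 CPM. At 3 d, the library of 113 of these cells, the median cell had 409 CPM of Prg4, and Col1a1 was the most abundant stromal marker. The pooled level was higher without the markers in every library, although only 9 cells at 3 w and 7 at 16 w are behind the levels without markers. Calb2, a calcium-binding protein, stood at 337, 881, 50.6, 765 and 269 CPM in them and at 2.91 CPM or less in the stromal cells of each library. Clic5, F13a1, Col22a1 and Rab37 were likewise more than 2-fold above the stromal cells in all 5 libraries. Rgs5, which the rule used, was at 732, 1734, 574, 1431 and 1267 CPM in these cells. At least 1 UMI of Pdgfra, a stromal receptor, was found in 144 of the 218, and in 26 of the 562 members with markers.

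Cells near the thresholds are described without a test. At 3 or 4 summed UMIs of Rgs5 and Notch3 there were 104 members, 13 of them with pericyte markers, and at 1 or 2 UMIs there were 1416 cells outside the rule, 48 of them with markers. At 500 to 1000 CPM of Myh11 there were 91 members, and at 1000 to 2000 CPM 111 cells outside it. Above 12000 UMIs, 416 cells met the rest of the rule and 176 of them had the markers. The 20 members without a UMI of Rgs5 were all from 3 d, and 3 of them had the markers. Because of this mixture, gene levels below are those of the 562 members with pericyte markers unless all members are named.

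Members with pericyte markers carried Pdgfrb and Mcam, which the split did not use, at every age. Pdgfrb, the receptor through which endothelial PDGF-B holds pericytes at the vessel, stood at 510, 530, 579, 528 and 292 CPM. Stromal cells stood at 47.2, 152, 86.2, 61.5 and 60.4 CPM and Myh11-high cells at 277, 300, 332, 226 and 314 CPM. The injured library held the lowest value of the members, which was still above every stromal value. Mcam (CD146), an adhesion molecule of mural and endothelial cells, was at 151, 151, 122, 114 and 187 CPM and at 10.2 CPM or less in stromal cells. Rgs5 was at 6064, 10751, 12540, 14680 and 6552 CPM and Notch3 at 493, 431, 592, 700 and 426 CPM. These 2 genes chose the cells, and their levels are a description. Endothelial markers summed to 48.7, 22.7, 15.8, 20.2 and 67.3 CPM and macrophage markers to 29.1, 28.7, 11.3, 45.5 and 52.4 CPM, with the most abundant genes at 3 d Plvap and C1qb. The defining genes Cdh5 and Tyrobp are at 0 through the rule.

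**Figure D2:**
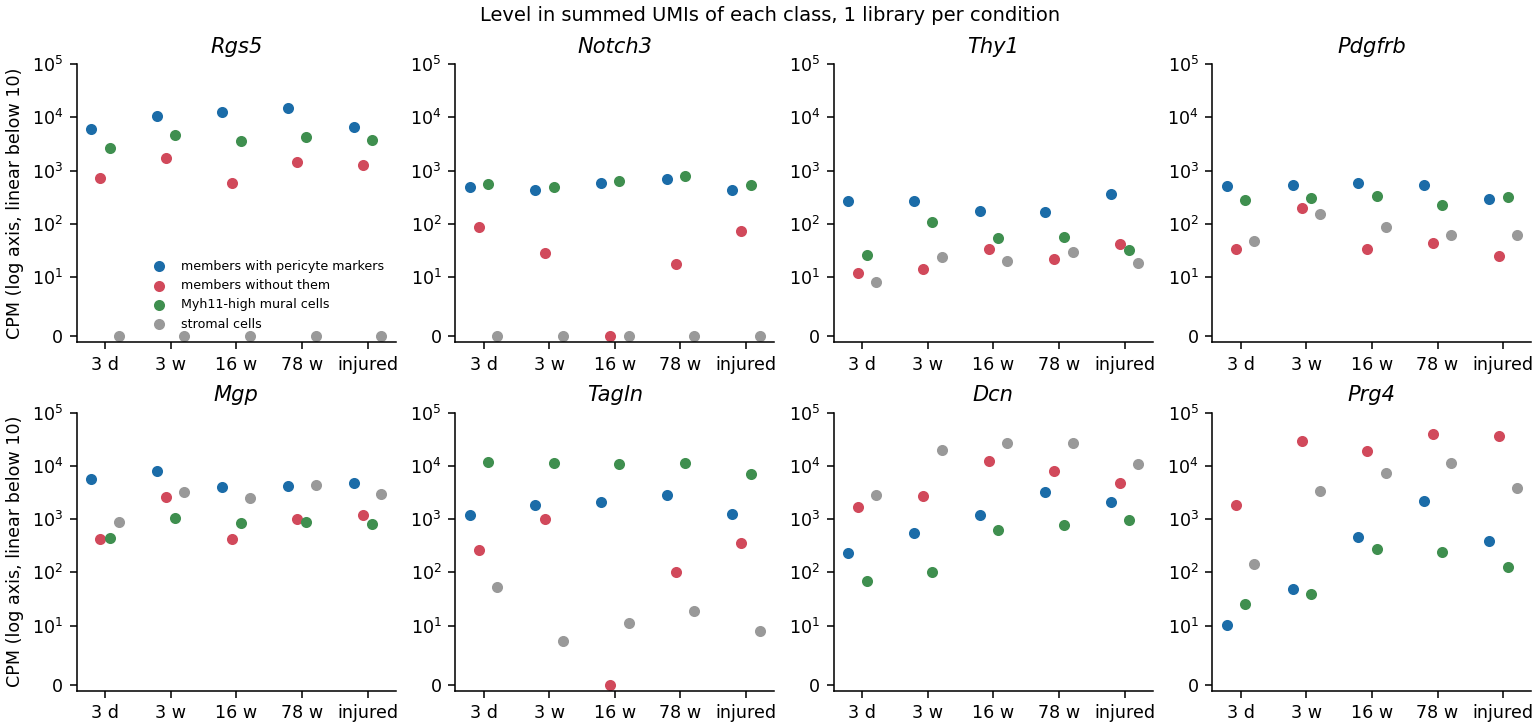
CPM of 8 genes (log axis, linear below 10) in each library, for members with pericyte markers (blue), members without them (red), Myh11-high mural cells (green) and stromal cells (grey). Each point is 1 library with no error bar; Thy1 and Mgp are higher in blue than in green in all 5 libraries, and Prg4 is highest in red.

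Thy1 was higher in members with pericyte markers than in the other classes of every library. Its level was 262 CPM (236 to 289) for 3 d, 268 CPM (234 to 305) for 3 w, 176 CPM (139 to 220) for 16 w, 164 CPM (127 to 209) for 78 w and 359 CPM (265 to 476) for the injured library. The highest value was that of the injured library and the lowest ones those of 16 w and 78 w, whose intervals overlap, and the injured interval also overlaps those of 3 d and 3 w. In Myh11-high cells Thy1 was at 26.0, 106, 54.2, 56.2 and 31.4 CPM, in members without markers at 12, 14, 33.8, 21.4 and 40.7 CPM, and in stromal cells at 9.17, 23.5, 19.6, 28.8 and 18.6 CPM. A UMI of Thy1 was found in 67.0%, 70.1%, 50.6%, 45.3% and 60.9% of members with markers. In endothelial cells, at median depths of 5661, 5770, 5566, 5169 and 2609 UMIs, the shares were 2.44%, 2.20%, 0.289%, 2.24% and 2.26%. After thinning of each cell to 1000 UMIs the members' shares were 20.4%, 21.4%, 12.3%, 12.2% and 28.3%. The injured library was highest after thinning, whereas the 3 w library was highest before it.

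From 3 d to 78 w, the ratio of Thy1 was 0.628 (0.475 to 0.818), and over all members it was 0.632 (0.484 to 0.815). With no upper limit on UMIs per cell the latter was 0.291, and with cells thinned to 1000 UMIs it was 0.555 (0.264 to 1.06), an interval that holds 1.

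Members, with and without pericyte markers, made up a small share of the captured cells. Of cells within the mitochondrial and UMI limits, members were 2.85% (2.57 to 3.17) for 3 d, 3.11% (2.62 to 3.67) for 3 w, 1.38% (1.11 to 1.70) for 16 w, 1.43% (1.17 to 1.73) for 78 w and 1.28% (1.05 to 1.54) for the injured library. The 3 d and 3 w shares lay above the other 3, and neither the first 2 nor the last 3 differed from each other beyond their intervals. For members with pericyte markers the shares were 1.92%, 2.91%, 1.27%, 1.03% and 0.553%, and the injured interval (0.405 to 0.737) lay below that of every normal library, where depth was greater and its part was not tested. Myh11-high cells were 0.165%, 1.44%, 1.30%, 1.60% and 0.144%, lowest at 3 d and in the injured library. The UMI limit took out 19%, 53.4%, 27.4%, 27.9% and 1.83% of retained cells and so sets these denominators, and over all retained cells members were 2.31% (2.08 to 2.57), 1.45% (1.22 to 1.71), 1.00% (0.805 to 1.23), 1.03% (0.841 to 1.24) and 1.25% (1.03 to 1.51). On that denominator 3 d stood above the other libraries, and the 3 w interval lay below that of 3 d and overlapped those of 16 w, 78 w and the injured library. The ratio of all members' shares, 78 w to 3 d, was 0.500 (0.397 to 0.624), and that of injured to 16 w was 0.924 (0.690 to 1.24). The second became 1.38 after thinning and 0.435 for members with markers alone, so its direction depends on which cells are counted.

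Against Myh11-high mural cells of the same libraries, members with pericyte markers were low in most contractile genes, and few genes were past 2-fold higher. The rule divides these cells by Myh11, so the comparison is a description. Of 5755 genes, 16 (0.278%) were past 2-fold higher in all 5 libraries and 55 (0.956%) past 2-fold lower. Of 19 fibrillar and disc matrix genes, 2 were past 2-fold higher in all 5 and 1 lower, and at any size 12 were higher in all 5 and 1 lower. Of 14 basement membrane genes, 0 were past 2-fold higher in all 5 and 1 lower, and at any size 4 were higher in all 5 and 2 lower. Counts at any size have no share over all genes beside them and are a description only. Of the 22 contractile genes tested besides Myh11, 9 were past 2-fold lower in all 5 libraries, 15 were lower in all 5, and 0 were higher in all 5. Of the other 7, Cnn1, Lmod1, Synpo2, Actg2, Myocd and Pln had too few UMIs in the injured library for a direction, Pln also at 3 d, and were lower in the remaining libraries. The last was Srf, which encodes serum response factor and stood at 25, 16.7, 38.4, 40.4 and 59.8 CPM against 43.3, 38.8, 48.8 and 35.1 CPM in the normal libraries and 0 UMIs in the 12 injured Myh11-high cells. Myh11-high cells numbered 20 at 3 d and 12 in the injured library, which held 115564 and 31891 UMIs in all.

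Acta2, smooth muscle actin, stood at 2179, 570, 1562, 1481 and 636 CPM in members with markers and at 15861, 4956, 8070, 7111 and 5205 CPM in Myh11-high cells. Tagln, an actin-binding protein of smooth muscle, was at 1178, 1842, 2090, 2793 and 1249 CPM against 11993, 11193, 11000, 11541 and 6961 CPM. The pooled library levels of both genes did not overlap between the classes, whereas single cells did. At 3 d the highest member with markers had 17738 CPM of Acta2 and the lowest Myh11-high cell 702 CPM. At 3 w the same values for Tagln were 26720 and 641 CPM. Sorbs2, an adaptor of the actin cytoskeleton, and Tpm2, a tropomyosin, were at least 9.58-fold and 4.41-fold lower in each library, and Bcam, a laminin receptor, at least 4.52-fold lower.

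In the other direction Mgp, an inhibitor of calcification, stood at 5645, 7984, 4102, 4294 and 4750 CPM against 450, 1054, 863, 884 and 815 CPM. The smallest of its 5 ratios was 4.75-fold. Mgp was also abundant in stromal cells, at 885, 3215, 2459, 4423 and 2946 CPM, of which the 78 w value was above that of the members. Cygb, a globin of stellate cells and pericytes, was at least 2.88-fold higher, with 466, 750, 574, 551 and 434 CPM in members and 62.4 CPM or less in stromal cells. Thy1 was at least 2.54-fold higher, and so were the collagen genes Col5a3, at least 2.90-fold, Col5a2, at least 2.46-fold, and Col6a3, at least 2.14-fold. Abcc9 and Kcnj8, at least 3.42-fold and 2.15-fold higher, were among the 8 genes that split the members. Of 18 pericyte markers tested, 3 were past 2-fold higher in all 5 libraries and 0 past 2-fold lower. At any size, 6 of the 18 were higher in all 5 and 2 were lower in all 5. Notch3 stood at 563, 500, 645, 794 and 533 CPM in Myh11-high cells. Together with Rgs5 it chose the mural cells, so nothing about the classes is read from its level.

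**Figure D3:**
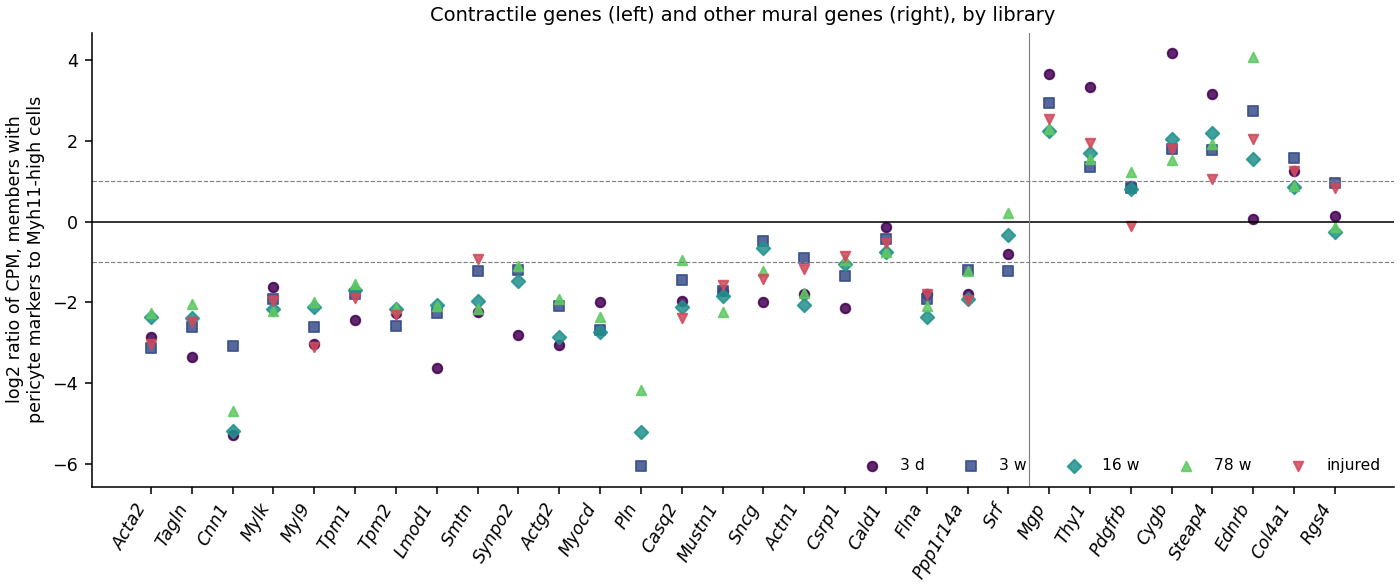
log2 of the ratio of CPM in members with pericyte markers to Myh11-high mural cells, 1 symbol per library, for the 22 contractile genes tested (left of the line) and 8 other mural genes (right), with dashed lines at 2-fold. Counts under 3 in the lower class were taken as 3, and no symbol is drawn where the counts gave no direction. Acta2, Tagln and Tpm2 lie below the lower line in all 5 libraries, and Mgp and Thy1 above the upper line. The 8 genes on the right were picked after their values were seen.

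Serum response factor switches on contractile genes through the CArG box, so the promoters of these lists were read for it. The windows were 250 bases before the annotated start, from RefSeq for GRCm38.p6, and the box is palindromic, so that both strands are covered. It was found in 482 of 32851 promoters (1.47%), in 2 of 22 promoters of contractile genes (9.09%), those of Myl9 and Srf, and in 0 of 18 promoters of pericyte marker genes. These promoters belong to 20 contractile and 12 pericyte marker genes with an entry. Myl9, the regulatory light chain of myosin, stood at 1102, 525, 1053, 1145 and 344 CPM in members with markers and at 8956, 3212, 4549, 4516 and 2948 CPM in Myh11-high cells. The stretches with the box are shown with its letters in capitals because these were the 2 contractile genes that held it, Myl9 with one and Srf with 2. A match describes the letters of the window and not a bound site.
Myl9, chr2:156775273-156775342, plus strand: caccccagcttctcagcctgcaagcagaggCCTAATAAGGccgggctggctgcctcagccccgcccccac
Srf, chr17:46556185-46556274, minus strand: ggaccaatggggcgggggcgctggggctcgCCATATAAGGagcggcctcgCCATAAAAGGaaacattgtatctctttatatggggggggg

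Among members with pericyte markers, cells with and without a UMI of Thy1 were compared gene by gene. Except for the Notch targets, a minority of each gene list differed in the same direction in all 5 libraries. Of 4 Notch targets tested, 1 (Heyl) was higher with Thy1 in all 5 and 1 (Nrarp) lower. There were 156, 89, 41, 34 and 28 cells with Thy1, with median depths of 6539, 7233, 5013, 5428 and 2722 UMIs. The 77, 38, 40, 41 and 18 cells without it had 5333, 5054, 5043, 4661 and 2501, so depth moved with the split in 4 of the 5 libraries and its part was not tested. Of 4324 genes, 178 (4.12%) were higher with Thy1 in all 5 libraries and 127 (2.94%) lower. How many genes would keep 1 direction in all 5 without a difference was not tested, so the genes named are a description. By lists, 4 of 13 basement membrane genes (Col4a1, Col4a2, Lamb1 and Sparc) and 4 of 18 pericyte markers (Cspg4, Steap4 and the split genes Higd1b and Kcnj8) were higher in all 5 and 0 of either list lower. Lower in all 5 were 5 of 17 immediate early genes, 4 of 19 contractile genes (Tagln, Myl9, Synpo2 and the rule's Myh11), 1 of 10 cytokine and adhesion genes (Ccl11) and 2 of 8 oxidative stress genes (Mt1 and Mt2), with 0 of these lists higher. Other members went either way, such as Cald1 and Cxcl2, each higher with Thy1 in 4 of the 5 libraries. Some lists went both ways: of 7 progenitor markers 2 were higher in all 5 and 1 lower. Of 19 fibrillar and disc matrix genes 2 were higher and 1 lower, and of 17 vessel signals and receptors 1 was higher and 1 lower.

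Mgp stood at 6772, 9390, 5920, 5802 and 5258 CPM with Thy1 and at 2632, 3313, 2367, 2785 and 3768 CPM without. The pooled library levels of the groups did not overlap, and the injured library had the smallest gap. Col4a1, a chain of the main basement membrane collagen, was at 5104, 4761, 1865, 1415 and 2976 CPM with Thy1 and at 4305, 2377, 901, 819 and 1950 CPM without, higher within each library. Ccl11, the eosinophil chemokine eotaxin, went the other way, with 95.7, 877, 1125, 1339 and 182 CPM with Thy1 and 161, 1452, 2998, 1966 and 372 CPM without. Tagln, Myl9 and Cxcl12, a chemokine that holds haematopoietic cells in niches, were also lower with Thy1 in all 5 libraries.

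Notch ligands and targets were read next, because Notch3 defines these cells. Of the pathway's lists, 3 receptors and ligands, 4 targets and 4 processing or cofactor genes had enough UMIs to be tested. The summed level of the targets Hes1, Hey1, Hey2, Heyl and Nrarp was 479, 1315, 1040, 1127 and 1092 CPM. Newborn cells were lowest, and the other libraries lay within 1040 to 1315 CPM. Stromal cells, also at their lowest at 3 d, stood at 111, 694, 322, 349 and 194 CPM for the same sum, and Myh11-high cells at 684, 1845, 1800, 1491 and 1913 CPM. From 3 d to 78 w the ratio was 2.35 (2.09 to 2.65), and 2.08 (1.86 to 2.33) over all members. Without the UMI limit the latter was 1.07 (0.990 to 1.16), an interval that holds 1.

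The targets did not move together. Hes1, a repressor of differentiation, stood at 306, 422, 854, 910 and 404 CPM, highest at 16 w and 78 w. Nrarp, a feedback inhibitor of Notch signalling, stood at 68.3, 645, 83.6, 96.0 and 516 CPM, and so was high at 3 w and in the injured library alone, and at 1.11 CPM or less in stromal cells. Hey1, with 18.2, 110, 27.1, 35.4 and 105 CPM, took the same order of high and low libraries as Nrarp. Heyl was at 80.5, 135, 58.8, 75.8 and 67.3 CPM, with a 78 w to 3 d interval (0.609 to 1.42) that holds 1. Jag1, which encodes a Notch ligand, stood at 77.1, 275, 118, 114 and 636 CPM, again high at 3 w and in the injured library, where the level was 2.31-fold above the highest normal library. In Myh11-high cells the list of 7 Notch receptors and ligands, led by Jag1, summed to 268, 420, 367, 308 and 564 CPM. That sum was also highest in the injured library. In endothelial cells Jag1 led the list in the injured library alone. Notch2 was at 180 CPM in the injured library against 45.5 CPM or less in the normal ones, while stromal cells there were at 370 CPM.

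Gene levels differed most between 3 d and 3 w and least between 16 w and 78 w. Of 4325 genes, 836 (19.3%) were past 2-fold higher and 903 (20.9%) lower at 3 w than at 3 d. From 3 w to 16 w, 373 (8.62%) were higher and 413 (9.55%) lower, and from 16 w to 78 w 110 (2.54%) were higher and 120 (2.77%) lower. Between 3 d and 78 w, 645 (14.9%) were higher and 654 (15.1%) lower at 78 w, and over all members 1386 of 5802 genes (23.9%) were past 2-fold in either direction. The 3 d cells came from both sexes and the later ones from males, so age and sex cannot be told apart at that step. Named by size, the genes highest at 16 w against 3 w were Cxcl9, Prg4, Hspa1b, Cyr61 and Hspa1a, and the lowest Cck, Rdh10, Nrarp, Hmox1 and Ifi30. From 16 w to 78 w, Fst, which encodes the activin inhibitor follistatin, was among the lowest, with 235, 454, 1076, 440 and 135 CPM over the libraries, a peak at 16 w. List counts below are for 78 w against 3 d, and the median log2 ratio over all tested genes was -0.08.

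Cytokine and chemokine transcripts were higher at 78 w than at 3 d. Of 10 tested genes of that list, which also holds the adhesion molecules Icam1 and Vcam1, 8 were past 2-fold higher and 0 lower, and the other 2 were those adhesion molecules, with a median log2 ratio of 1.63, where stromal cells had 1.46 for the same genes. The list summed to 2768, 12294, 13616, 11051 and 8011 CPM in members with markers and to 507, 1371, 753, 1307 and 338 CPM in stromal cells. In Myh11-high cells it summed to 1047, 7554, 2111, 6477 and 8466 CPM, so that the lowest level at 3 d was shared by both mural classes and the injured value of the Myh11-high cells was above that of the members. The 78 w to 3 d ratio of the sum was 3.99 in members with markers and 6.19 in Myh11-high cells. Cxcl1, a neutrophil chemokine and the most abundant of the list in all 5 libraries, stood at 1436, 5892, 5745, 4635 and 3411 CPM. Il6, the interleukin of acute inflammation, stood at 120, 1953, 1982, 1663 and 711 CPM, low at 3 d and intermediate after injury, with a 78 w to 3 d ratio of 13.9 (11.7 to 16.5). Its median over single cells was 0 in every library but 3 w, where it was 1090 CPM, and its highest cell at 78 w had 15679 CPM. Ccl11 stood at 114, 1010, 2084, 1653 and 247 CPM, lowest at 3 d and in the injured library, and at 1.63 CPM or less in stromal cells of every library. Cxcl9, an interferon-induced chemokine for T cells, was at 3.38, 15.6, 328, 157 and 7.48 CPM, and was thus seen mainly at 16 w and 78 w.

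Immediate early genes moved in the same direction in these cells and in the stroma. Of 17 tested, 15 were past 2-fold higher at 78 w, with a median log2 ratio of 2.07 in members with markers and 1.73 in stromal cells. Fos, a subunit of the AP-1 transcription factor, was at 1208, 1498, 4811, 5289 and 1234 CPM, and 1137, 4585, 4548, 2263 and 1447 CPM in stromal cells. Enzymatic dissociation can induce these genes and its part in their levels, and in those of the cytokines, was not tested. Hspa1a and Hspb1 encode heat shock proteins. Hspa1a was at 481, 1237, 6242, 4493 and 1346 CPM, highest at 16 w.

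Antigen presentation genes of class I followed the step from newborn to juvenile. Of 7 tested 4 were past 2-fold higher at 78 w and 0 lower, with a median log2 ratio of 2.99 against 2.87 in stromal cells. H2-K1, a class I heavy chain, stood at 23.7, 422, 294, 404 and 337 CPM, low at 3 d and alike in order of size afterwards. H2-K1 belongs to a family of near-identical genes, so its reads may be shared with them. The list summed to 700, 2485, 2450, 2492 and 2154 CPM.

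Receptors of vessel tone differed among themselves. Of 17 tested vessel signals and receptors, 6 were past 2-fold higher and 3 lower at 78 w. Ednrb, the endothelin B receptor, stood at 27.0, 1094, 199, 445 and 389 CPM, with its highest level at 3 w a 78 w to 3 d ratio of 16.4 (11.6 to 23.8) and 0.668 CPM or less in stromal cells. Ednra, the endothelin A receptor, was at 134, 195, 170, 167 and 232 CPM, and its 78 w to 3 d interval (0.928 to 1.65) holds 1. Epas1, a hypoxia-inducible transcription factor, was at 219, 466, 549, 576 and 434 CPM, lowest at 3 d. Cck, the peptide cholecystokinin, was at 3.38, 335, 33.9, 25.3 and 89.8 CPM, and thus a gene of the 3 w library.

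Basement membrane genes were lower with age. Of 13 tested, 9 were past 2-fold lower at 78 w than at 3 d and 1 higher, with a median log2 ratio of -1.11 against -1.22 in stromal cells. Col4a1 had 4886 CPM (4774 to 5000) for 3 d, 4209 CPM (4072 to 4351) for 3 w, 1372 CPM (1265 to 1485) for 16 w, 1117 CPM (1015 to 1226) for 78 w and 2625 CPM (2358 to 2915) for the injured library. The step to lower levels lay between 3 w and 16 w, and the injured library lay between the young and the older ones. Col18a1, the source of endostatin, was at 681, 250, 58.8, 80.9 and 277 CPM, lower already at 3 w. The gene past 2-fold higher was Lamb2, a laminin chain of mature vessels, at 50.7, 160, 176, 179 and 112 CPM.

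Imprinted growth genes and cell cycle genes were low after 3 d. Of 11 imprinted genes tested, 9 were past 2-fold lower at 78 w and 0 higher, and of 8 cell cycle genes 7 were lower and 0 higher, with median log2 ratios of -1.87 and -2.52 against -2.41 and -2.84 in stromal cells. Dlk1, a transmembrane relative of the Notch ligands, stood at 2353, 153, 79.1, 142 and 209 CPM, and at 1016 CPM in stromal cells at 3 d. Igf2, a fetal growth factor, was at 786, 13.2, 18.1, 25.3 and 7.48 CPM, lower at every later time. Stmn1, a microtubule protein of dividing cells, stood at 386, 75.3, 31.6, 37.9 and 67.3 CPM.

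**Figure D4:**
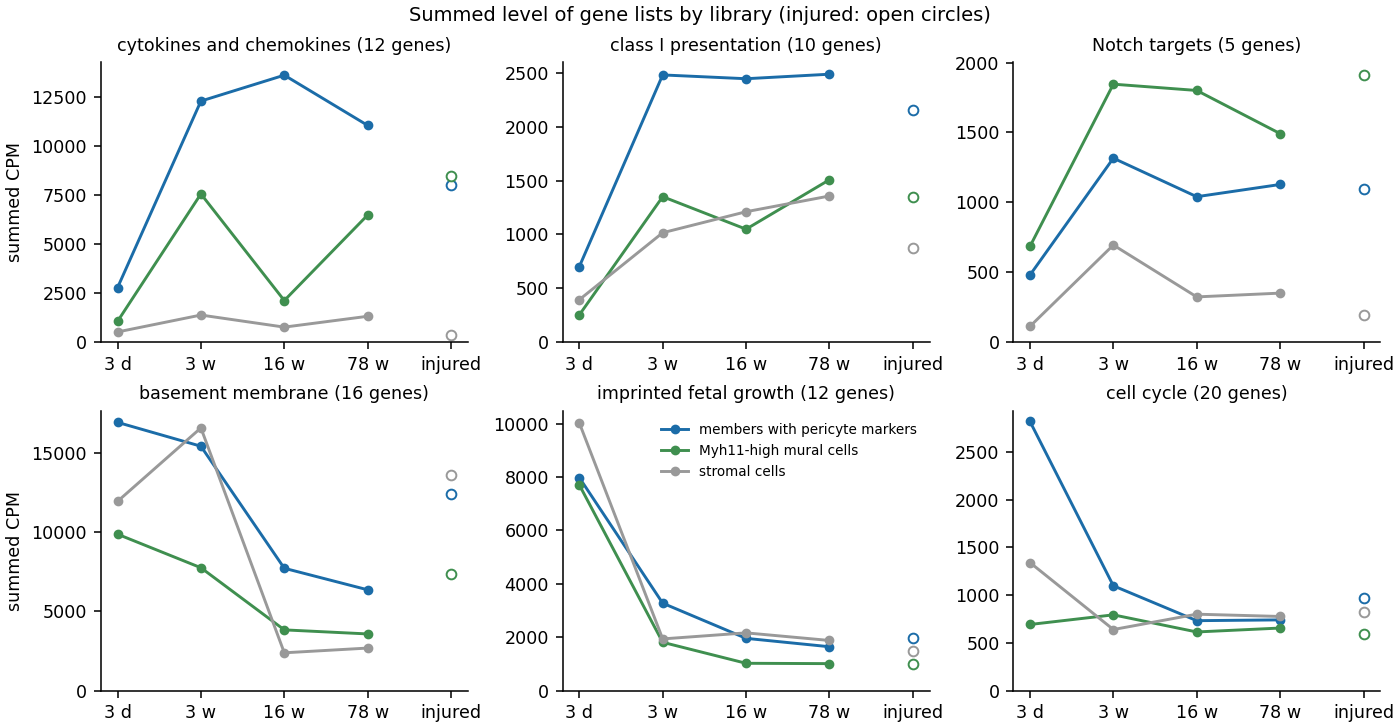
Summed CPM of 6 gene lists by library, for members with pericyte markers (blue), Myh11-high mural cells (green) and stromal cells (grey), with the injured library as open circles and no error bars since each point is 1 library. Cytokine sums of the blue cells go from 2768 CPM at 3 d to 12294 CPM at 3 w, far above the grey cells, while basement membrane and imprinted lists are lower at 78 w than at 3 d in all 3 classes.

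Pericyte markers and contractile genes are given beside the shares of all tested genes, 14.9% past 2-fold higher and 15.1% lower at 78 w than at 3 d, and nothing about the lists is read from their counts. For the 8 markers that selected the cells, Vtn among them, the levels are partly set by that selection. Of 18 pericyte markers tested, 3 were past 2-fold higher at 78 w (Vtn, Steap4 and Rgs4) and 1 lower (Cd248), with a median log2 ratio of 0.02. Rgs4, which like RGS5 damps G protein signals, stood at 95.3, 478, 463, 516 and 449 CPM, low at 3 d alone. Steap4, a metalloreductase, was at 233, 602, 705, 566 and 194 CPM. Cd248, endosialin, was at 162, 31.1, 24.9, 40.4 and 15.0 CPM, and it was also higher at 3 d in stromal cells (63.3 against 16.5 CPM at 78 w). Of 18 contractile genes tested, 4 were past 2-fold higher and 1 lower, with a median log2 ratio of 0.02, and their sum over all members had a ratio of 1.01 (0.981 to 1.04). Without the UMI limit that ratio was 0.450. Sncg, gamma-synuclein, was at 41.2, 214, 522, 455 and 209 CPM, the widest of these.

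Fibrillar matrix and stromal genes need the level of the surrounding stroma beside them. Of 19 matrix genes 6 were past 2-fold higher and 9 lower at 78 w. The list of 12 stromal markers summed to 2075, 1752, 3096, 7973 and 15281 CPM in members with markers, led by Col1a1 or Dcn, and to 16575, 39987, 48137, 54974 and 48835 CPM in stromal cells. Its part in the members was thus highest at 78 w and in the injured library. Dcn, decorin, stood at 227, 544, 1211, 3247 and 2064 CPM in members with markers and at 2893, 19853, 27592, 27106 and 11008 CPM in stromal cells. A few cells carried the members' pooled levels: at 78 w the median cell had 378 CPM of Dcn, the upper quartile was 731 CPM and the highest cell had 35724 CPM, and in the injured library these were 332, 742 and 12908 CPM. A Prg4 UMI was seen in 4.29%, 14.2%, 44.4%, 60% and 34.8% of members with markers and in 2.93%, 15.6%, 46.5%, 65.1% and 24.1% of endothelial cells, which should lack it. The members' share was below the endothelial one at 3 w, 16 w and 78 w, so that it shows no excess of cells with a UMI there. The pooled level again rested on few cells, since at 78 w the median was 213 CPM, the upper quartile 389 CPM and the highest cell 66329 CPM, and the part of stromal RNA was not tested. Some genes that led the age comparison by ratio were also abundant in stroma: at 78 w, members with markers and stromal cells stood at 955 and 6174 CPM for Clu, 804 and 6216 CPM for Comp, 753 and 4532 CPM for Fmod, and 275 and 1760 CPM for Prelp. The part of stromal RNA in these levels was not tested. The erythroid list, led by Hbb-bs, summed at 3 d to 3425 CPM in members with markers, 5708 CPM in endothelial cells, 1725 CPM in stromal cells and 10773 CPM in Myh11-high cells, and the part of red cell RNA was not tested.

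In the injured library, members with pericyte markers had 4 pericyte markers past 2-fold below every normal library, and Spry2, Hspe1 and Crip1 past 2-fold above. Only 46 such cells with 133692 UMIs were behind these values. Of 4325 genes, 62 (1.43%) were past 2-fold above the highest normal library and 134 (3.1%) past 2-fold below the lowest. Over all members, with 5802 genes tested, the counts were 67 and 333.

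Of 18 pericyte markers, 4 were past 2-fold below the normal range and 0 above it. Vtn, vitronectin, stood at 74.8 CPM in the injured library (35.9 to 138) and at 218, 224, 411 and 526 CPM in the normal libraries. Kcnj8 was at 202 CPM (133 to 294) against 446 to 498 CPM, and both it and Vtn helped to split the members. Des, an intermediate filament of muscle and mural cells, was at 127 CPM (74.1 to 204) against 277 to 631 CPM, and Foxs1, a forkhead factor of mural cells, at 29.9 CPM (8.15 to 76.6) against 79.1 to 140 CPM. Pdgfrb was 1.75-fold below the lowest normal library, and Abcc9 1.48-fold.

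Spry2, a feedback inhibitor of receptor tyrosine kinase signalling, stood at 54.8, 335, 120, 177 and 1690 CPM (1477 to 1926 in the injured library). It was 5.05-fold above the highest normal library, and stromal cells also had their highest level after injury, 310 CPM against 65.9 CPM or less. Mustn1, a small protein of muscle regeneration, was at 410, 762, 619, 470 and 1384 CPM, within 2-fold of the 3 w level, and at 57.4 CPM or less in stromal cells. Procr, the endothelial protein C receptor and a marker of some progenitor cells, was at 229, 1618, 834, 776 and 2326 CPM, within 2-fold of the 3 w level. Hspb1 was at 452, 1732, 2011, 2080 and 3695 CPM. Crip1, a LIM protein, was at 7532 CPM against 3651 CPM or less, and Hspe1, a mitochondrial chaperone, at 1092 CPM against 362 CPM or less.

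Gadd45g, a stress and growth arrest gene, was on the other side, with 375, 631, 1198, 1537 and 105 CPM, and it was also lowest after injury in stromal cells (75 CPM). Sesn3 and Nnmt were past 4-fold below the normal range, at 22.4 and 15.0 CPM, values near the floor of few UMIs. Col1a1, a chain of collagen I, stood at 1371, 759, 343, 245 and 10734 CPM in members with markers. Its pooled level was highest in the injured library also in stromal cells (9427, 7462, 758, 702 and 23273 CPM), Myh11-high cells (476, 263, 182, 177 and 5174 CPM) and members without markers (4584, 671, 692, 185 and 6994 CPM). The median cell without markers, however, had 3303 CPM at 3 d and 2993 CPM in the injured library. The part of stromal RNA in these levels was not tested. Over the 46 injured cells with markers its median was 2362 CPM, the upper quartile 7890 CPM and the highest cell 72912 CPM, so that the pooled level lay above the upper quartile of the cells.

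**Figure D5:**
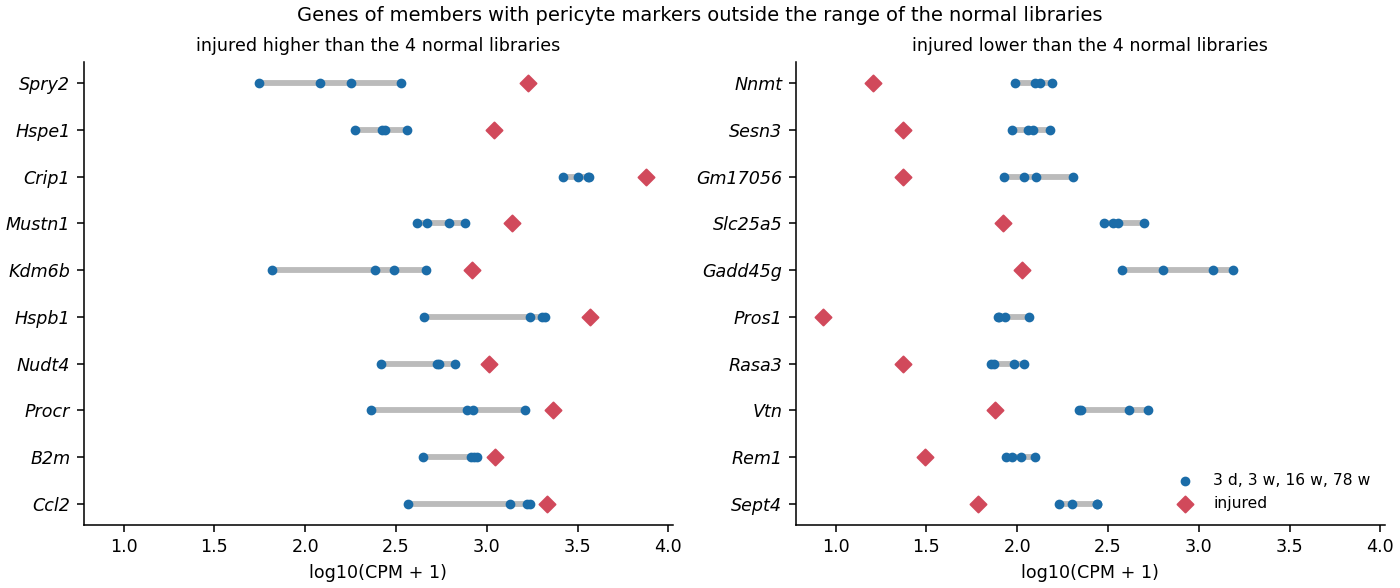
log10 of CPM plus 1 in members with pericyte markers for the 10 genes furthest above (left) and below (right) the range of the 4 normal libraries, among genes at least 2-fold above stromal cells in the higher library. Blue points are the normal libraries, joined by a grey bar over their range, and red diamonds are the injured library, in which Spry2 reached 1690 CPM.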

How the data were processed

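Each of the 5 libraries was made with 10x Genomics 3′ chemistry from disc cells freed with Pronase and Collagenase P. The authors deposited UMI counts per gene and barcode, not normalized. The submitters' processing notes name Cell Ranger 3.1 and mm10, whereas the headers of the files name Cell Ranger 4.0.0. The files name no build, and 98.7% of their 27998 gene IDs were found in the GRCm38 annotation, from which positions were taken. The file of the library labelled 78 weeks is named for 16 months, and the label was followed.

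The members, lists and rules were chosen with earlier results of these data known. Members were chosen by UMI counts as the report states, and no doublet caller was run: the limit of 12000 UMIs stands in for it. The split by 8 pericyte markers was added after the values were seen. For each class and library, UMIs were added over cells and scaled to CPM, and counts under 3 in the lower group were taken as 3 in ratios. Where both groups held 3 UMIs or fewer, or the floor turned the direction, no difference was counted. This form of the floor was set after the values were seen. Intervals are exact Poisson for levels, Clopper-Pearson for shares and conditional binomial for ratios. Named genes are the 5 or 10 with the largest ratios past 2-fold in each direction, also after a filter for levels at least 2-fold above stromal cells, with listed genes and the markers added. Ratios and counts of calls were tested on simulated data. Alternatives are given at the end. Python 3.11.15, numpy 2.4.6, scipy 1.17.1, pandas 2.3.3 and matplotlib 3.10.9 were used.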

Additional observations from a re-analysis of the deposited data

How the results depend on the processing

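No paired analysis was possible because each condition was 1 library, and for the same reason no replicate could be left out. Over 11 results for all members, 125 alternative values were computed, of which 89 moved by less than counting error or by less than 1.5 times for counts of genes, and 36 moved further. No ratio whose interval excluded 1 changed its side of 1, whereas the injured to 16 w share and the contractile sum, whose intervals held 1, did. The restriction to members with pericyte markers, its combination with thinning, and a floor of 3 counts on both groups were chosen after seeing the data. The cause of the moves was not tested. The share ratio of 78 w to 3 d, 0.500, became 0.696 with no upper UMI limit and 0.360 with cells thinned to 1000 UMIs. The ratio of injured to 16 w, 0.924, became 1.38 when thinned and 0.435 with marker-positive members. Counts of genes past 2-fold depended on depth and on the UMI minimum. From 3 w against 3 d the 2284 genes became 484 when thinned, 3947 with at least 30 UMIs and 4592 with at least 1 UMI. From 16 w against 3 w the 1057 genes became 219, 2058 and 2343 in that order. From 78 w against 16 w the 544 became 94, 1319 and 1488, and 230 with marker-positive members. From 78 w against 3 d the 1386 became 376, 2619 and 3140. The 400 genes outside the normal range in the injured library became 70 when thinned, 196 with marker-positive members and 47 with both. The 118 genes past 2-fold against Myh11-high cells became 192 with no UMI limit, 74 without Pdgfra, 29 when thinned, 71 with marker-positive members and 185 with the floor on both groups, which moved none of the other counts of genes. The Thy1 ratio of 0.632 became 0.291 with no UMI limit. The contractile ratio of 1.01 became 0.965 with at least 5 UMIs of Rgs5 and Notch3, 0.450 with no UMI limit, 0.735 with Myh11 below 500 CPM, 1.07 without Pdgfra, 0.960 with at least 1 UMI of Rgs5, 1.09 when thinned, 1.12 with equal weight per cell and 1.11 with marker-positive members, so its side of 1 is not settled. The Notch target ratio of 2.08 became 1.07 with no UMI limit and 2.35 with marker-positive members. The 133692 UMIs of the 46 marker-positive injured cells limit what can be seen in genes of low level.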

Other observations

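Metallothionein and oxidative stress genes had low levels in newborn members with pericyte markers: the list summed to 1830, 7999, 7593, 6960 and 4967 CPM, with 6 of 8 tested genes past 2-fold higher at 78 w than at 3 d and 0 lower, where stromal cells had a median log2 ratio of 3.41 for the list against 2.49 in the members. Of 6 interferon response genes 4 were higher and 0 lower, with median log2 ratios of 1.25 in the members and 0.44 in stromal cells. Irf1, a transcription factor of the interferon response, stood at 83.1, 255, 323, 364 and 74.8 CPM, lowest in the injured library and at 3 d. Progenitor markers, Thy1 among them, had 1 of 8 past 2-fold higher and 0 lower, and the gene was Cxcl12.
The unnamed transcript Gm26870 stood at 9888 CPM in injured members with pericyte markers and at 996 CPM or less in the normal libraries, and at 6837 CPM in injured stromal cells.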
